A study of Mus musculus with 6 samples.

Results

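The cytosolic ribosomal protein genes are the protein-coding genes whose products make up the large (60S) and small (40S) subunits of the ribosome outside mitochondria. They were taken by symbol: protein-coding genes named Rpl or Rps followed by a number, together with Rplp0, Rplp1, Rplp2 and Rpsa, without pseudogenes and without the Rps6k kinases. This gave 83 genes of the 16800 with a TPM value (a transcript level scaled for gene length and library size), of which 51 have Rpl symbols and 32 Rps symbols. All 83 were found by gene identifier in the table of raw counts, which lists 45777 genes, and 82 had enough counts to be tested among 16188 genes. The gene that was not tested, Rpl32l, had a mean TPM of 0.181. The rule used no measured value, so the level and the difference between groups are both results.

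The tissue was the tibialis anterior (TA), a fast-twitch muscle of the lower leg, from 6 male C57BL/6J mice aged 24 months by the sample labels. The methods of the study give 24 to 26 months, and its results text describes geriatric mice of 27 months. The vehicle group was 3 mice given 5% DMSO with 5% Tween 80. The BML-260 group was 3 mice given 5 mg/kg of BML-260, a small molecule used by the study to inhibit the phosphatase DUSP22. Both were injected intraperitoneally every 24 h for 4 weeks. All 6 mice are old and no young or uninjected mice are among the libraries, so the values compare drug with vehicle in aged muscle only. There was 1 library per mouse, made from ribosomal RNA-depleted total RNA, and mice are called vehicle 1 to 3 and BML-260 1 to 3 by the numbers in the labels.

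Ribosomal proteins are made in near equal numbers and assemble on ribosomal RNA in the nucleolus, so their genes are usually expressed together at high levels. Their messenger RNAs start with a pyrimidine tract, the 5′ terminal oligopyrimidine (TOP) motif, through which mTORC1 signaling controls their translation. Ribosome number is one of the limits on protein synthesis in muscle fibers. Striated muscle also expresses Rpl3l, a paralog of the large subunit protein gene Rpl3 that replaces it in mature fibers.

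The libraries held between 39522890 and 56998875 counts, of which between 552206 (vehicle 2) and 1470648 (vehicle 3) lay on the ribosomal protein genes. The fiber genes Ckm, Acta1, Myh4, Myh1, Pygm, Atp2a1, Tnnt3 and Mylpf were abundant in every library. Their summed level was between 76992 and 127038 CPM (counts scaled to the size of the library, with TMM factors) with vehicle and between 119001 and 146069 CPM with BML-260. The lowest value belonged to vehicle 3, which stood apart from the other libraries. Its 8 macrophage markers summed to 351 CPM against 78.9 to 129 CPM in the other libraries, its 5 neutrophil markers to 171 CPM against 2.07 to 52.3 CPM, and its 5 erythroid markers to 2344 CPM against 591 to 839 CPM. The 5 Schwann cell markers summed to 64.2 CPM in vehicle 3 and to between 16.5 and 26.6 CPM elsewhere. Of the neutrophil markers, Ly6g was at 0 in every library but vehicle 3, and the 8 lymphocyte markers summed to between 0.462 and 1.59 CPM, with 7 of them too low to test. In the comparison of the groups, 7 of the 8 macrophage, all 4 tested neutrophil and all 5 erythroid markers were lower with BML-260. Their median log2 fold changes were -1.20, -4.90 and -1.05, or -0.59, -3.47 and -0.32 without vehicle 3. None of these markers had an adjusted edgeR p under 0.05. The groups did not overlap for 7, 3 and 3 of them, beside 6.91% of all genes lower without overlap. All 6 fibroblast markers were lower as well, with a median of -0.18, or -0.22 without vehicle 3. The Schwann cell median was -0.29, or 0.48 without vehicle 3, where all 5 markers were higher. Of 5 markers of regenerating fibers, 3 were lower and 2 higher with BML-260. Their median log2 fold change was -0.20, or -0.32 without vehicle 3. The groups overlapped for Myh8, Pax7 and Myf5 and not for Myog and Myh3, beside 6.91% of all genes lower without overlap. The most abundant of the 5, Myh8, had 379, 618 and 345 CPM with vehicle and 448, 463 and 599 CPM with BML-260. The myogenic factor Myog had 7.12, 10.01 and 28.2 CPM with vehicle and 2.91, 3.39 and 5.86 CPM with BML-260, and the embryonic myosin Myh3 had 14.6, 29.7 and 45.0 CPM with vehicle and 12.3, 5.25 and 10.7 CPM with BML-260. The part of these cells and genes in the results below was not tested. The comparisons between the groups are given with and without vehicle 3. The intended target of the drug, Dusp22, had 38.4, 32.4 and 19.6 CPM with vehicle and 38.1, 37.5 and 30.01 CPM with BML-260. The log2 fold change of Dusp22 was 0.23, or -0.0054 without vehicle 3, and the groups overlapped. By western blot, the study reported less DUSP22 protein in the TA of aged mice given BML-260. Protein and messenger RNA need not move together, so the Dusp22 counts do not check the labels.

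Sequences around the annotated transcript starts show what these genes share beyond their names. RefSeq promoter sequences of the mouse assembly GRCm38.p6 (the same assembly as mm10), running from 250 bases before to 50 bases after a start, were found for 63 of the 83 genes, with 75 starts. Within 50 bases on either side of the start, read on the transcribed strand only, 59 of the 75 starts (78.7%) had an unbroken run of at least 8 pyrimidines (C or T). Over all 32851 starts in the table the share was 35.7%, over the 15241 starts of tested genes it was 33.0%, and over 75 starts of mitochondrial ribosomal protein genes it was 34.7%. The median of the longest run was 10 bases for the ribosomal protein genes and 7 bases for all starts. The hexamer CTTTCC, which can lie inside such a run, was in the same window of 29.3% of the starts and of 4.69% of all starts. Over the whole 300-base window and on both strands, CCGGAAG, the core of the site read by ETS factors, was present at 34.7% of the starts, 8.86% of all starts, 15.4% of the starts of tested genes and 34.7% of the starts of mitochondrial ribosomal protein genes. These are matches of letters and say nothing of binding.

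The windows printed here are those of genes picked by their values in the comparison of the groups, where a start was given. They are 5 of the 10 genes that were lower with BML-260 without overlap between the groups, and the 3 genes whose fold change was above 0. Of all genes tested, 12.1% had groups without overlap, 6.91% of them lower and 5.23% higher, as shares of all genes. Each is a 30-base stretch in the direction of transcription with the longest pyrimidine run near the start in capitals, and the coordinates are those of GRCm38.
Rplp0, chr5:115559466-115559495, plus strand: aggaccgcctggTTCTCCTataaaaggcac
Rpl28, chr7:4792952-4792981, plus strand: gcctctcgtgTCTCTCTTTCCgtctccggc
Rpl13a, chr7:45128722-45128751, minus strand: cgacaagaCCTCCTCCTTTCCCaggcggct
Rps12, chr10:23787182-23787211, minus strand: ccaccgccggCCTTTTCCCCTgccgccgcc
Rpl23, chr11:97782404-97782433, minus strand: gagtgggcggggCCTCCCgttcatatccca
Rps2, chr17:24720083-24720112, plus strand: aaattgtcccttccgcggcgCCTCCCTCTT
Rpl3l, first start, chr17:24727846-24727875, plus strand: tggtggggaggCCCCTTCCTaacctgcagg
Rpl3l, second start, chr17:24732676-24732705, plus strand: aacagctacagtgCCCCaaatgtcctgaaa
Rpl7l1, chr17:46782671-46782700, minus strand: cgtcgaggcgggCCTCTCTaccccgcccgg
The run was 14 bases in Rpl13a, 11 in Rpl28 and Rps12, and at least 10 in Rps2, where it reached the end of the sequence. It was 9 at the first start of Rpl3l, 7 in Rplp0 and Rpl7l1, 6 in Rpl23 and 4 at the second start of Rpl3l. The run began 3 bases before the annotated start in Rpl28 and 3, 9, 12 and 19 bases from the start within the transcript in Rpl13a, Rps12, Rplp0 and Rpl23. In Rpl7l1 it began 32 bases before the start. Within the transcript it began 41 bases from the start in Rps2, and 32 and 5 bases from the first and second starts of Rpl3l. The lengths are thus of runs at unlike distances from the start. The 5 genes that were lower had runs of 6 to 14 bases. The 3 genes above 0 had runs of 4 to 10 bases within the sequence, and the run of 10 in Rps2 may be longer. No difference in run length was tested. No promoter entry was matched for Rpl3, Rpl7, Rpl21, Rplp1, Rps14, Rps20 and Rps27a among the genes described here.

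By TPM, which allows levels to be compared between genes, most of these genes sat in a narrow high band. The median over the 82 tested genes was between 371 and 460.05 TPM in vehicle 1, vehicle 2 and the BML-260 libraries, and 831 TPM in vehicle 3. The highest mean level over the 6 libraries was that of Rplp1 (1253 TPM), which encodes an acidic protein of the ribosomal stalk, followed by Rpl26 (1043 TPM) of the large subunit and Rps14 (1000.5 TPM) of the small subunit. Among the tested genes the lowest mean TPM values were those of Rpl7l1 (17.5 TPM), Rps15a (59.1 TPM) and Rpl22 (93.7 TPM). Rps15a had about as many counts as Rplp2 (means of 187 and 184 CPM with vehicle), which was at 650 TPM. Its low rank thus rests on the length used for its TPM, which was not checked. In vehicle 1, vehicle 2 and vehicle 3 the summed level of all 83 genes was 39695, 31402 and 71233 TPM, and in BML-260 1, 2 and 3 it was 33793, 34150 and 32679 TPM. The groups overlapped, and vehicle 3 alone was far from the others.

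As a share of each library's counts, the ribosomal protein genes took 1.85%, 1.39% and 2.82% in vehicle 1, 2 and 3 and 1.60%, 1.47% and 1.40% in BML-260 1, 2 and 3. The mean of the 3 vehicle libraries was 2.02% ± 0.730 (SD, n = 3), and that of the 3 BML-260 libraries was 1.49% ± 0.101 (SD, n = 3). The difference of -0.529 percentage points was about the size of the pooled SD of 0.521 and shrank to -0.129 without vehicle 3. Vehicle 2 had the lowest share of the 6 libraries, below every BML-260 library. In bulk tissue, fewer cells of a type that expresses these genes strongly and less RNA per cell cannot be told apart. Vehicle 3 was also the library with the highest macrophage, neutrophil, erythroid and Schwann cell markers and the lowest fiber genes, and the part of these cells in its ribosomal protein level was not tested.

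Across the groups the ribosomal protein genes leaned in a single direction by a small amount. The median log2 fold change (BML-260 over vehicle, edgeR) was -0.27 over the 82 tested genes, beside -0.0039 over all 16188 genes, and the values ran from -0.93 for Rpl3 to 0.33 for Rpl3l. The log2 fold change was below 0 for 79 genes and above 0 for Rpl3l, Rpl7l1 and Rps2, where 50.5% of all genes were below 0. By edgeR's quasi-likelihood test, 0 of them had an adjusted p under 0.05 (Benjamini-Hochberg over all genes, 0% of which passed), and the smallest adjusted p was 0.699, for Rpl3. At the volcano threshold used here, a 1.3-fold difference or more and an unadjusted edgeR p under 0.05, 4 of the 82 genes were called. All 4 were lower (Rpl3, Rps20, Rps27a and Rpl21), beside 5.75% of all genes called (4.86% lower and 0.896% higher). The unadjusted edgeR p was under 0.05 for the same 4 genes, and for 5.97% of all genes (4.95% lower and 1.02% higher). A count of 4 in 82 is near this background. The standard errors (SE) of their log2 fold changes were between 0.134 and 0.290, so a difference of the size of the median lay within about 2 SE for any single gene.

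**Figure D1:**
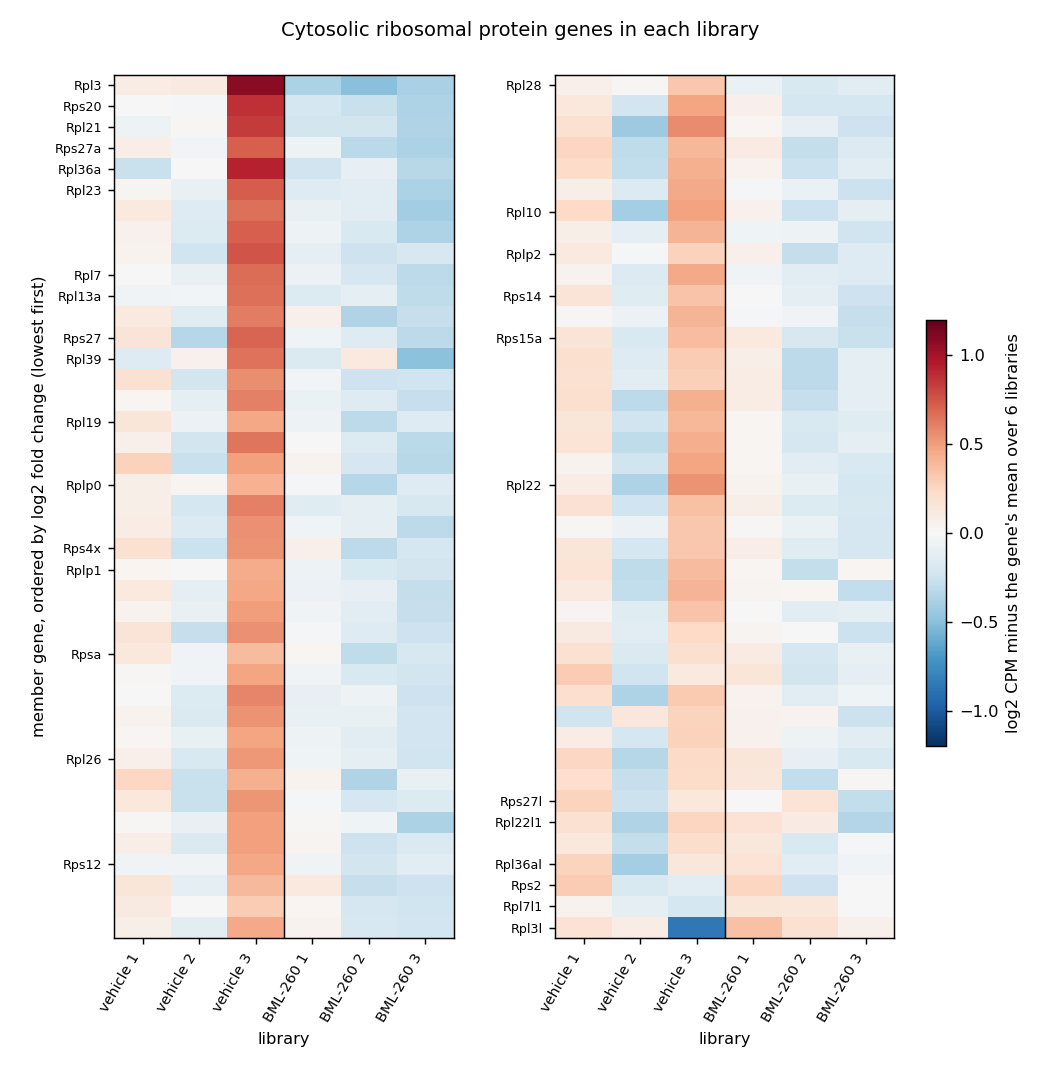
Each row is a tested cytosolic ribosomal protein gene (82 genes, in 2 panels, ordered from the lowest to the highest log2 fold change, with labels for genes described in the text) and each column a library, with the 3 vehicle libraries left of the black line. Colour gives log2 CPM minus the gene's mean over the 6 libraries, and the vehicle 3 column is the highest for 75 of the 82 genes, while Rpl3l at the bottom is lowest there.

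The libraries within a group differed as much as the groups did. Relative to each gene's mean over the 6 libraries, the median deviation of the 82 genes on the log2 CPM scale was 0.11, -0.16 and 0.45 in vehicle 1, 2 and 3 and 0.018, -0.17 and -0.22 in BML-260 1, 2 and 3. Vehicle 3 was the highest library for 75 of the 82 genes and the lowest for Rpl3l and Rpl7l1, where it was the highest for 31.4% and the lowest for 32.1% of all genes. Its level was 1.45 times the mean of the other 5 libraries in the median gene, with a range from 0.487 (Rpl3l) to 2.42 (Rpl3), and it was over 1.5 times that mean for 28 genes. Among the 5 other libraries, vehicle 1 was the highest for 72 genes, and vehicle 2 was the lowest for 27, BML-260 2 for 19 and BML-260 3 for 36. Over all 6 libraries, vehicle 2 was the lowest for 26 genes, BML-260 2 for 19 and BML-260 3 for 35.

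Without vehicle 3 the median log2 fold change was -0.088, beside 0.0019 for all genes, with 72 genes lower and 10 higher. The share of all genes below 0 was then 49.6%. Of the 79 genes that were lower in all 6 libraries, 71 were lower and 8 were higher in the absence of vehicle 3, and Rps2 turned lower. A single gene, Rpl3, had an unadjusted edgeR p under 0.05, beside 4.39% of all genes (3.12% lower), and 0 had an adjusted p under 0.05 by edgeR (smallest 0.297, for Rpl3), beside 0.0364% of all genes. The direction was thus shared by most of the genes in both fits, while the median moved from -0.27 to -0.088 when that library was left out.

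**Figure D2:**
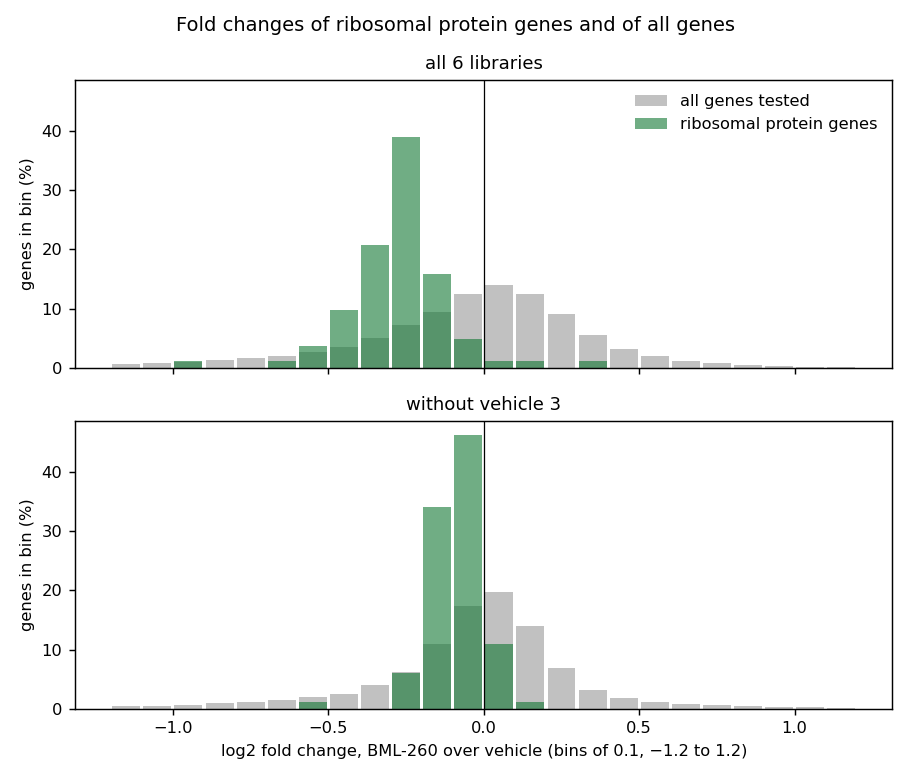
Bars give the percentage of genes in bins of 0.1 of the log2 fold change (BML-260 over vehicle) for the 82 tested ribosomal protein genes in green and for all tested genes in grey, with all 6 libraries above and without vehicle 3 below, from -1.2 to 1.2. The green bars centre on a median of -0.27 above and of -0.088 below, and the grey bars stay centred near 0.

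Libraries of the 2 groups were fully separate for 10 of the 82 genes, all lower with BML-260, beside 12.1% of all genes without overlap (6.91% lower and 5.23% higher). A count of 10 in 82 is near the share of all genes without overlap in either direction. They are Rpl3, Rps20, Rps27a, Rpl21, Rpl23, Rplp0 and Rplp1, with Rpl13a, Rpl28 and Rps12, which were added for this count after their values were seen. In the large subunit, Rpl3, which encodes a protein near the peptidyl transferase center, had 116, 117 and 230.4 CPM in vehicle 1, 2 and 3 and 83.5, 76.8 and 83.1 CPM in BML-260 1, 2 and 3. Each BML-260 library was below each vehicle library, and the vehicle values of the first and second mice were close together while the third was much higher. The edgeR log2 fold change was -0.93 ± 0.27 (SE) with a Benjamini-Hochberg adjusted p of 0.699. Without vehicle 3, edgeR gave -0.52 ± 0.13 (SE) with an adjusted p of 0.297. Rpl3 lies at chr15:80077781-80083406 (GRCm38).

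Rpl21 encodes another large subunit protein. It had 208, 218 and 387 CPM with vehicle and 185, 186 and 169 CPM with BML-260, without overlap, and its log2 fold change was -0.59 (SE 0.25) with all libraries and -0.24 without vehicle 3. Rpl23, whose free protein can bind the p53 regulator Mdm2, had 230.1, 212 and 372 CPM with vehicle and 203, 206 and 173 CPM with BML-260. Its log2 fold change was -0.49 (SE 0.23) and -0.19 without vehicle 3. Rpl19, the last of the 6 genes with the smallest p, had 209.8, 181 and 262 CPM with vehicle and 183, 153 and 171 CPM with BML-260. Vehicle 2 was below BML-260 1, so its groups overlapped, and its log2 fold change was -0.37 (SE 0.18), or -0.21 without vehicle 3. None of Rpl21, Rpl23 and Rpl19 had an adjusted edgeR p below 0.788 with Benjamini-Hochberg adjustment.

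In the small subunit, Rps20 had 294, 292 and 543 CPM with vehicle and 254, 245 and 228 CPM with BML-260. The lowest vehicle library was above the highest BML-260 library, and the log2 fold change was -0.63 (SE 0.26), or -0.27 without vehicle 3. Rps27a is made as a fusion of ubiquitin with the ribosomal protein S27a, so it also supplies the cell with ubiquitin. It had 209, 193 and 323 CPM with vehicle and 189.6, 158 and 151 CPM with BML-260. The gap between vehicle 2 and BML-260 1 was small beside the spread within either group, and the log2 fold change was -0.54 (SE 0.22), or -0.27 without vehicle 3. Rpsa, which also serves as a precursor of a laminin receptor, had 404, 359.9 and 480.4 CPM with vehicle and 377, 300.3 and 324 CPM with BML-260. Its groups overlapped, with a log2 fold change of -0.31 (SE 0.18), or -0.19 without vehicle 3. Rps2, which lines the entry of messenger RNA into the ribosome, had 472, 338 and 348 CPM with vehicle and 458, 322 and 384 CPM with BML-260. Its log2 fold change was 0.0067, or -0.061 without vehicle 3, and it turned to -0.0085 with upper quartile normalization and to -0.11 with library totals alone, so that no direction can be given for it.

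The stalk proteins recruit and activate the elongation factors that drive the ribosome along its messenger RNA. Rplp0, the base of the stalk, had 747, 727 and 949.6 CPM with vehicle and 699.6, 563 and 641 CPM with BML-260, without overlap. Rplp1 had 333, 329 and 446 CPM with vehicle and 315, 289 and 281 CPM with BML-260, again without overlap. Rplp2 had 182, 167 and 204 CPM with vehicle and 175, 138 and 152 CPM with BML-260, and BML-260 1 was above vehicle 2. Their log2 fold changes were -0.35, -0.33 and -0.25 with all libraries, and -0.21, -0.16 and -0.17 without vehicle 3. The 3 stalk genes thus differed little from one another, and their median of -0.33 was close to that of the other groups.

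The subunits did not stand apart from each other. The 43 tested large subunit genes other than stalk genes and paralogs had a median log2 fold change of -0.27, all 43 below 0 and 5 without overlap. The 31 tested small subunit genes had a median of -0.28, with 30 below 0 and 3 without overlap. Of all genes, 6.91% were lower without overlap. Without vehicle 3 these medians were -0.088 and -0.092. Rpl10, Rpl36a, Rpl39 and Rps4x, the 4 genes on the X chromosome, had a median of -0.36, or -0.099 without vehicle 3. Of the most abundant genes, Rpl26 had a log2 fold change of -0.29 and Rps14 one of -0.24, or -0.070 and -0.12 without vehicle 3. Of those with the lowest TPM, Rps15a had one of -0.24 and Rpl22 one of -0.22. Without vehicle 3 these were -0.097 and 0.041, so that the sign of Rpl22 turned. No difference between these subsets was tested.

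Paralogs of ribosomal proteins had log2 fold changes nearer to 0 or above it. Of the 8 paralogs considered, Rpl3l, Rpl7l1, Rpl22l1, Rpl36al and Rps27l belong to the genes chosen, and their median log2 fold change was -0.026, beside -0.28 for the other 77 tested genes. Rpl10l had 0 counts in all libraries, Rpl39l had 39 counts in total and no TPM value, and Rps4l is annotated as a transcribed pseudogene with 271 counts in total. The log2 fold changes of the 5 were 0.33 (Rpl3l), 0.19 (Rpl7l1), -0.026 (Rpl36al), -0.062 (Rpl22l1) and -0.088 (Rps27l), each with overlap between the groups. Those of their partners were -0.93 (Rpl3), -0.43 (Rpl7), -0.54 (Rpl36a), -0.22 (Rpl22) and -0.40 (Rps27). In each of the 5 pairs the paralog had the higher value. With vehicle 3 left out, the values were 0.073 and -0.52 for Rpl3l and Rpl3, 0.13 and -0.15 for Rpl7l1 and Rpl7, 0.033 and -0.091 for Rpl36al and Rpl36a, 0.052 and 0.041 for Rpl22l1 and Rpl22, and -0.055 and -0.092 for Rps27l and Rps27. The signs of Rpl22l1, Rpl36al and Rps27l were not stable, as each was above 0 with sample quality weights and without 1 or more single libraries. Without vehicle 3 the median of the 5 paralogs was 0.052, and that of the other 77 genes was -0.091. The difference between paralogs and other genes was not tested, since members are not replicates.

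Rpl3l encodes the striated muscle paralog of Rpl3 and lies at chr17:24727826-24736143 (GRCm38). It had 208, 197 and 102 CPM in vehicle 1, 2 and 3 and 236, 209.6 and 193 CPM in BML-260 1, 2 and 3. Vehicle 3 was far below the other 5 libraries, which overlapped between the groups. The edgeR log2 fold change was 0.33 ± 0.26 (SE) with a Benjamini-Hochberg adjusted p of 0.796, or 0.073 ± 0.14 (SE) without vehicle 3. By TPM, Rpl3l was above Rpl3 in 5 libraries and below it in vehicle 3. It made up 61.9%, 59.5% and 28.8% of the pair's TPM in vehicle 1, 2 and 3 and 71.6%, 71.1% and 67.8% in BML-260 1, 2 and 3.

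The ratio of Rpl3l to Rpl3 in CPM was 1.80, 1.69 and 0.442 in vehicle 1, 2 and 3 and 2.83, 2.73 and 2.33 in BML-260 1, 2 and 3. Every BML-260 library was above every vehicle library. The difference of the mean log2 ratio was 1.25, a fold of 2.38 (exact permutation test with 10 ways to assign the libraries, 2-sided, p = 0.1, the smallest p that 3 against 3 can give). Without vehicle 3 the difference was 0.59 and the groups still did not overlap. This ratio is a comparison within each library, so it does not depend on how the libraries were scaled. The fiber genes were lowest in vehicle 3, where the ratio was lowest as well, and the part of the cell makeup in the ratio was not tested.

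**Figure D3:**
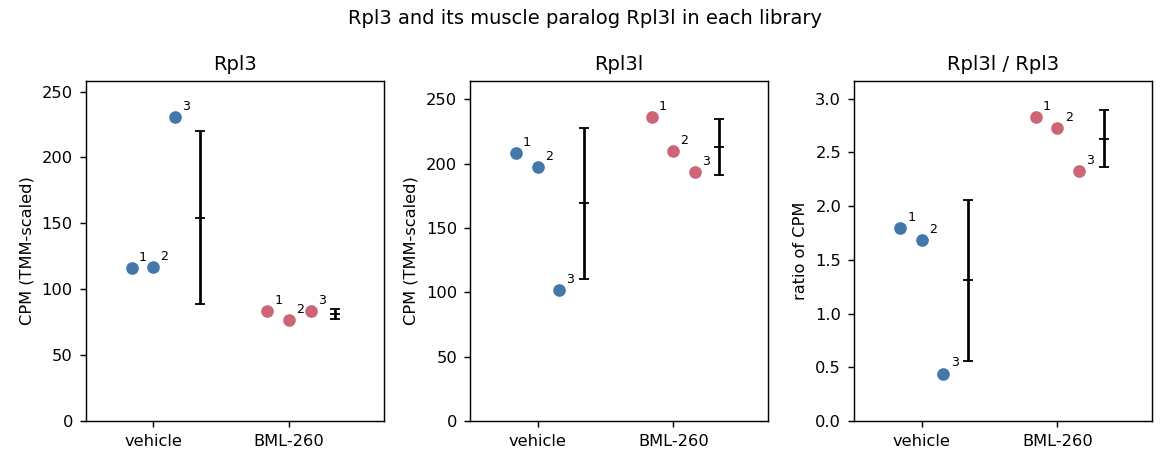
Points are single libraries, numbered by mouse (vehicle blue, BML-260 red), for CPM of Rpl3, CPM of Rpl3l and the ratio of Rpl3l to Rpl3, and black bars give the mean and SD of 3 libraries. Rpl3 was between 76.8 and 83.5 CPM with BML-260 and at or above 116 CPM with vehicle, and the ratio was at least 2.33 with BML-260 and at most 1.80 with vehicle.

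The coding sequences of the pair show how far reads can be told apart. The longest open reading frames in the GENCODE M21 transcripts (GRCm38) were 1212 bases for Rpl3 and 1224 bases for Rpl3l. They were identical at 899 of 1208 aligned positions (74.4%), and the longest stretch shared without a mismatch was 22 bases. The first 30 coding bases are printed from the start codon, with the bases that differ between the genes in capitals.
Rpl3: atgtcTcacAggaaAttctcAgcTccCAgg
Rpl3l: atgtcCcacCggaaGttctcTgcCccTCgg
Among the other pairs, coding identity was 87.9% for Rpl36a and Rpl36al, 76.1% for Rps27 and Rps27l, 70.2% for Rpl22 and Rpl22l1, and 62.6% for Rpl7 and Rpl7l1. The longest shared stretch in these pairs was between 10 and 26 bases.

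In the other pairs the paralog's share of the pair's TPM differed by fewer percentage points between the groups. Points do not compare shares of unlike size on a relative scale. The vehicle and BML-260 means were 2.32% and 3.32% for Rpl7l1, and 50.1% and 70.2% for Rpl3l. Rpl7l1 made up 2.79%, 2.68% and 1.49% with vehicle and 3.16%, 3.42% and 3.36% with BML-260, without overlap. Rpl22l1, whose partner Rpl22 encodes an RNA-binding protein that represses it, made up between 63.3% and 69.4% with vehicle and between 66.01% and 70.8% with BML-260. Rpl36al made up between 27.0% and 48.0% with vehicle and between 38.5% and 45.7% with BML-260. Rps27l, a p53 target, made up between 17.5% and 25.4% with vehicle and between 24.3% and 28.2% with BML-260. The lowest share of each of these 5 paralogs among the 6 libraries was that of vehicle 3.

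**Figure D4:**
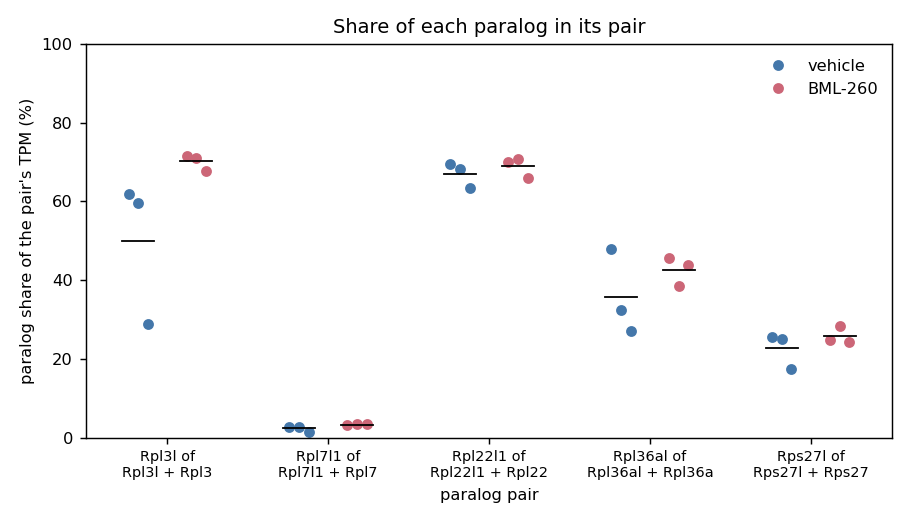
Points give the share of a paralog in the summed TPM of the paralog and its partner in each library (vehicle blue, BML-260 red), and lines give group means. For Rpl3l the vehicle libraries span 28.8% to 61.9% and the BML-260 libraries 67.8% to 71.6%, and the lowest vehicle point of each pair is vehicle 3.

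Components of the ribosome that the symbol rule does not take had log2 fold changes below 0. Fau, a ubiquitin-like fusion with the small subunit protein S30, had a log2 fold change of -0.30 (SE 0.21). Rack1, a signaling scaffold on the small subunit, had one of -0.17 (SE 0.23). These values were -0.099 and -0.019 when vehicle 3 was left out. The groups overlapped for both, and the sign turned for Rack1 with sample quality weights.

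Translation factors and other genes with TOP messenger RNAs were described as a related list of 21 genes. Their median log2 fold change was -0.28, with 16 lower and 5 higher, and 3 had an unadjusted edgeR p under 0.05, all lower, beside 4.95% of all genes lower at this p. Pabpc1, the poly(A)-binding protein, had 53.6, 63.9 and 82.8 CPM with vehicle and 50.8, 50.02 and 45.0 CPM with BML-260. Eef1a1, the elongation factor that brings transfer RNA to the ribosome, had 592, 741 and 1092 CPM with vehicle and 561, 533 and 500.4 CPM with BML-260. The groups did not overlap for either gene, and their log2 fold changes were -0.46 and -0.60, or -0.27 and -0.32 without vehicle 3. Of the 21 genes, 6 were lower without overlap, beside 6.91% of all genes. Eif4a2, an RNA helicase of translation initiation, had a log2 fold change of 0.14, and Eef1d, a subunit of the exchange factor for Eef1a1, had one of 0.097, which turned to -0.022 with library totals alone. Without vehicle 3 they were 0.10 and 0.060. In that fit the median of the list was -0.073 and 0 of the 21 had an unadjusted p under 0.05.

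Ribosome biogenesis genes, which make ribosomal RNA and assemble the subunits, had a median log2 fold change of -0.11 over 45 genes, with 32 lower and 13 higher. Gnl3, the nucleolar GTPase nucleostemin, had 23.6, 29.6 and 42.6 CPM with vehicle and 19.6, 25.4 and 20.5 CPM with BML-260. Riok2, a kinase of late small subunit maturation, had 22.8, 27.2 and 28.8 CPM with vehicle and 18.8, 22.8 and 20.5 CPM with BML-260. These were the 2 genes of the list with an unadjusted edgeR p under 0.05, both lower, beside 4.95% of all genes lower at this p. Their log2 fold changes were -0.55 and -0.34, or -0.28 and -0.27 without vehicle 3. Taf1d and Rrn3, both needed for transcription of ribosomal RNA by RNA polymerase I, had log2 fold changes of 0.35 and 0.25 with overlap between the groups, or 0.21 and 0.13 without vehicle 3. Without vehicle 3 the median was -0.0043, with 23 lower and 22 higher.

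The mitochondrial ribosomal protein genes, whose products build the separate ribosome of mitochondria, had values on the other side of 0. Of 78 genes, 63 had a log2 fold change above 0 and 15 below, with a median of 0.11. Of them, 0 had an unadjusted edgeR p under 0.05, beside 5.97% of all genes. Mrps25 had 23.7, 21.5 and 14.8 CPM with vehicle and 29.4, 24.1 and 24.9 CPM with BML-260, and Mrps11 had 12.5, 10.7 and 7.96 CPM with vehicle and 13.2, 13.6 and 13.0 CPM with BML-260. The groups did not overlap for either gene, and vehicle 3 was the lowest library for both. Of the 78 genes, 5 were higher and 1 was lower without overlap, beside 5.23% and 6.91% of all genes. Their log2 fold changes were 0.39 and 0.35, or 0.21 and 0.20 without vehicle 3. Mrpl41 and Mrpl52, the 2 genes with the smallest p among those lower, had log2 fold changes of -0.27 and -0.14, or -0.21 and -0.21 without vehicle 3. Vehicle 3 was the lowest library for 61 of the 78 genes and the highest for 2, opposite to the cytosolic genes, of which it was the highest for 75 of 82. Without vehicle 3 the median was -0.015, with 46 lower and 32 higher.

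**Figure D5:**
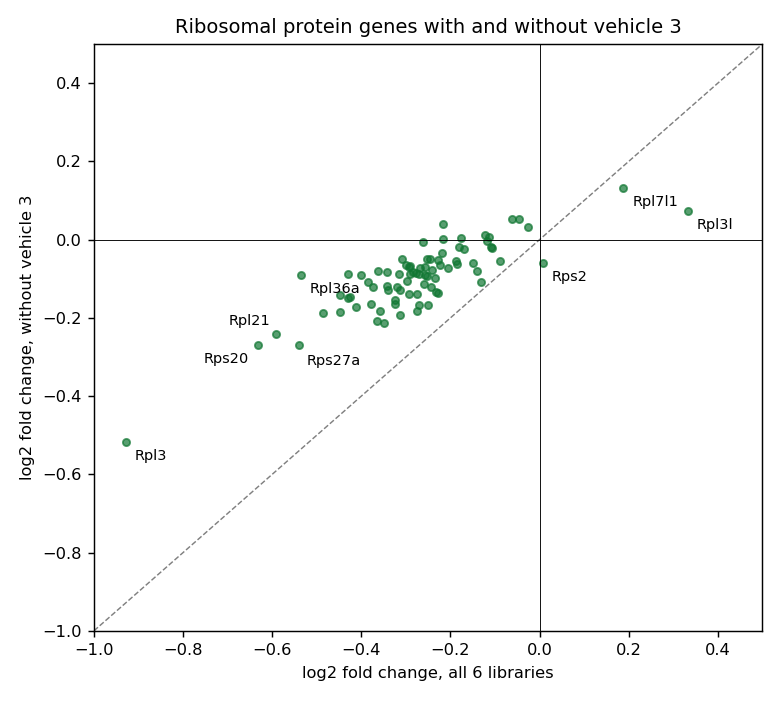
Each point is a tested cytosolic ribosomal protein gene, with its log2 fold change (BML-260 over vehicle) from all 6 libraries on the x axis and from the 5 libraries without vehicle 3 on the y axis, and the dashed line marks equal values. Most points lie above the line, between 0 and -0.27 on the y axis, and Rpl3 stands alone at -0.93 and -0.52.

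Reads of these genes can be shared with other features. Named ribosomal protein pseudogenes (118 listed, 80 tested) held between 0.0170% and 0.0305% of a library's counts, so the share of counts on the genes with these pseudogenes added differed by -0.534 percentage points between the groups, close to the -0.529 without them. Summed over libraries, named pseudogenes had 18.7% as many counts as their parent for Rpl15, 11.3% for Rpl10a and 10.9% for Rpl10, the highest values of this kind, which were picked after they were seen. Their median log2 fold change was -0.20. Many ribosomal protein genes carry small nucleolar RNAs (snoRNAs) in their introns. Of the tested genes, 30 contained 59 annotated snoRNA genes, and these 30 had a median log2 fold change of -0.30, beside -0.26 for the 52 without. The snoRNA genes had 2291 counts in total against 2096432 counts on their hosts. Any snoRNA reads counted on a host would not be among the 2291, so their part in the host counts is not known.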

How the data were processed

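Raw counts per gene and TPM values were deposited by the authors for 6 TA libraries (TruSeq Stranded Total RNA Gold). Per the labels' processing notes and the study's methods, reads were trimmed with Trimmomatic 0.38, mapped to mm10 with HISAT2 2.1.0 and Bowtie2 2.3.4.1, and assembled with StringTie 2.1.3b. The rules for counting, strand and multi-mapped reads are not given in the sources used here, so counts of paralogs, pseudogenes and host genes are uncertain to that extent.

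Genes were tested as 1 table in R 4.3.3 with edgeR 4.0.16 (filterByExpr, TMM, quasi-likelihood F-test, Benjamini-Hochberg adjustment over 16188 genes). The standard error was the size of the log2 fold change divided by the square root of F. CPM values are scaled by TMM factors, and levels between genes were compared in TPM. The study itself used DESeq2. Alternatives were DESeq2 1.42.0, limma 3.58.1 (voom with sample quality weights, and trend on log2 TPM plus 1 or 0.1), other normalizations and filters, a replicate block and leaving out each library. Test code was tested on simulated data. P-values measure the spread between mice.

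Members and lists were chosen with earlier results of these data known. Genes named are the 6 members with the smallest p in each direction (3 were higher), paralogs and partners, Rplp0, Rplp1, Rplp2 and Rpsa, the 3 highest and 3 lowest by TPM, Fau and Rack1, and from each related list the 2 with the smallest p in each direction. Some genes that this rule or the lists take are not reported here. Gene coordinates and promoters are from RefSeq (GRCm38.p6, 83 of 83 genes matched), coding sequences from GENCODE M21, aligned with Biopython 1.88. Figures were drawn with matplotlib 3.10.9. With 3 mice in each group, an exact permutation test cannot give a p under 0.1.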

Additional observations from a re-analysis of the deposited data

How the results depend on the processing

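The median log2 fold change of the ribosomal protein genes stayed below 0 in each of the 16 alternative settings, from -0.42 with library totals alone to -0.087 with sample quality weights (65 lower and 17 higher). Library totals alone and log2 TPM with a pseudocount of 0.1 moved the median of all genes to -0.12 and -0.14, and the median of the ribosomal protein genes was then lower than that of all genes by 0.30 and 0.27. The number called at the volcano threshold was 1 with the replicate block, 1 with sample quality weights, 1 with log2 TPM and a pseudocount of 1, and 1 with a pseudocount of 0.1, and that gene was Rpl3. In these 4 settings, 6.53%, 5.50%, 2.65% and 4.12% of all genes were called. Leaving out single libraries gave between 1 and 27, with 27 without vehicle 2, 5 without vehicle 1, 2 without BML-260 1, and 1 without vehicle 3, BML-260 2 or BML-260 3. The share of all genes called in the same order was 7.22%, 13.3%, 4.19%, 3.98%, 3.00% and 3.91%. DESeq2 called 5 at the volcano threshold, beside 6.31% of all genes. By DESeq2, 0 had an adjusted p under 0.05 (smallest 0.101), where it gave 0.587% of all genes such a p. Rpl3 was called in each of the 16 settings, with log2 fold changes from -1.10 to -0.52. The difference in log2 ratio of Rpl3l to Rpl3 was between 0.59 (without vehicle 3) and 1.60, and the share of summed TPM differed by -1.39 percentage points.

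Replicate numbers were shared between the groups. Over all genes, the deviations of same-numbered libraries correlated at 0.276, 0.0775 and 0.156, and those of differently numbered libraries at -0.204 to -0.0160. Over the ribosomal protein genes, same-numbered libraries correlated at 0.580, 0.178 and -0.0854, and differently numbered ones at -0.467 to 0.265. Whether the numbers pair the mice or mark a batch was not tested, and the main fit used no block. With the replicate block the count over all genes was 1057 in place of 931.

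Of 656 values for the 41 named genes, 26 changed sign. Rps2 was -0.0085 with upper quartile normalization, -0.11 with library totals, and -0.14 with log2 TPM and a pseudocount of 1 or 0.1 (-0.142 and -0.143). Eef1d was -0.022 with library totals and -0.12 with log2 TPM (-0.115 and -0.116). With sample quality weights Rpl22l1 was 0.099, Rpl36al 0.14, Rps27l 0.00020, Rpl10 0.024, Rpl22 0.061 and Rack1 0.056. When single libraries were left out, the range was -0.13 to 0.18 for Rps2, -0.23 to 0.085 for Rpl22l1, -0.20 to 0.11 for Rpl36al, -0.23 to 0.030 for Rps27l, -0.42 to 0.041 for Rpl22 and -0.11 to 0.54 for Rps4l. The cause of these changes was not tested. No named gene had an adjusted p under 0.05 in any of these settings.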
